A study of Mus musculus with 6 samples.

Results

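Of 7151 mouse genes with a named probe on 2 kinds of liver expression array, 5 that are known from Kupffer cells and other macrophages, or that act on them, were described probe by probe: Csf1, Lyz2, C1qc, Cybb and Cd74. They were chosen by name: every probe on array A or B whose annotation held exactly 1 gene symbol, and that symbol one of the 5, was taken. Each gene had 1 such probe, those of Csf1, Lyz2 and Cybb on array A and those of C1qc and Cd74 on array B. Total RNA came from the livers of 3 male mice, with 1 mouse in each group. One was fed ad libitum and killed at 17 days (1st age group), as the label gives it. Another was fed ad libitum and killed at 174 days, and the last was calorie-restricted and killed at 177 days (both 2nd age group). No strain or genotype was given in the sources used here. Each liver was hybridised to both array kinds, which carry different spots, so every member was read once in each mouse and no value has an error between animals.

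Kupffer cells are the macrophages that live in the liver sinusoids, where they take up particles, worn red cells and bacteria from portal blood. Macrophages need signals through the CSF1 receptor to survive, and its ligand CSF1 is made in tissue mainly by stromal and endothelial cells rather than by the macrophages themselves. Lysozyme, complement C1q, the phagocyte NADPH oxidase and the class II invariant chain are typical products of the mature cells. Csf1 thus stands for the supply of a growth factor, and the other 4 genes for the phagocytes. In whole-liver RNA, fewer cells of a type and less RNA per cell cannot be told apart.

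Csf1 was the one member whose spot differed by more than 2-fold between mice, being highest in the 17-day mouse and lower in both older mice. Each of the 4 phagocyte genes differed by at most 0.44 log2 between any 2 of the mice. The 250 bases before the annotated start are shown for Csf1 and for the 3 phagocyte genes whose window was at hand, from RefSeq on GRCm38.p6. Each is on the minus strand and is written 5′ to 3′ towards the start. Capitals mark the 6 letters GAGGAA (the PU box, bound by the myeloid factor PU.1), the 6 letters AGGAAG (an Ets-type core, which can overlap it) and a strict kB site of NF-kB, searched on both strands.
Csf1, chr3:107760470-107760719: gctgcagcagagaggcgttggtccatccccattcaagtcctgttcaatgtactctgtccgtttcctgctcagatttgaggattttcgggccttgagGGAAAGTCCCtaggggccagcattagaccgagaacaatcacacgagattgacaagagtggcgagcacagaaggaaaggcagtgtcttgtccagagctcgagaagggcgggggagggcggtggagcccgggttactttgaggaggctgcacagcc
Lyz2, chr10:117282273-117282522: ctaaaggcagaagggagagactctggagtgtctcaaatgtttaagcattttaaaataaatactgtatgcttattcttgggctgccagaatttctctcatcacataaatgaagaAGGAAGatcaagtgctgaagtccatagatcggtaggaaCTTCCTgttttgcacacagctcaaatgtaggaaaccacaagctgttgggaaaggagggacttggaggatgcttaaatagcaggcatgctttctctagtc
C1qc, chr4:136892915-136893164: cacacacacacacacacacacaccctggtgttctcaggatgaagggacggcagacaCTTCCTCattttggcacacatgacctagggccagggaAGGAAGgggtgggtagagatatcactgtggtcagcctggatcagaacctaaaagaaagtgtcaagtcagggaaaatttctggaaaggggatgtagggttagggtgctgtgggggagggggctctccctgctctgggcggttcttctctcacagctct
Cybb, chrX:9469325-9469574: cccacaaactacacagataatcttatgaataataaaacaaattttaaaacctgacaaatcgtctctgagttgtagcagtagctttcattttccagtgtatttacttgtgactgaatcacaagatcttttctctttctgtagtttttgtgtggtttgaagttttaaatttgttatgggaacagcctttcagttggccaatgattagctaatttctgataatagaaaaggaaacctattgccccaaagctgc

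The 4 windows held different sets of motifs. That of Csf1 held 1 kB site, on the minus strand from 154 to 145 bases before the start, which 0.14% of 32851 promoter windows of the same length hold. It also held 2 GC boxes (GGGCGG, in 32.7% of windows) and had a GC content of 56.4%. Neither the PU box nor the Ets-type core was found in the Csf1 window, and the Cybb window held neither of them. The Lyz2 window held 2 Ets-type cores and no PU box. That of C1qc held 2 Ets-type cores, one of them overlapping a PU box. The C1qc window also held 1 GC box, from 24 to 19 bases before the start, and its GC content was 54%, near that of Csf1. The Lyz2 window had a GC content of 41.6%. The PU box is in 23.3% of windows and the Ets-type core in 29.5%. The Cybb window had a GC content of 34.0% and held 3 matches to a repeat pattern of interferon regulatory factors (2.98% of windows), and 1 AP-1 match, TGANTCA (6.75%). A TATA box of the letters TATAAA, in 12.4% of windows, was in none of the 4. These are matches of letters only, and the arrays did not measure binding.

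Values are spot intensities, which the arrays record in arbitrary units. The arrays differed in brightness: median spot intensity was 364.3, 35.8 and 375 on array A and 402.5, 60.8 and 332.8 on array B, in the order 17 days, 174 days and calorie restriction. A spot is therefore also given as a multiple of its array's median. Differences are log2 differences after the 3 arrays of a kind were brought to the same distribution of values (quantile normalization), where 1 is 2-fold, the threshold used for calling a gene apart. With 1 mouse per group there is no test. As a measure of how far a single spot can be trusted, 483 genes had exactly 2 probes brighter than the middle of their array kind. Their 2 probes disagreed by a median of 0.31 log2 in the age comparison, 0.52 in the diet comparison and 0.41 between the calorie-restricted and the 17-day mouse. They disagreed by at least 1 log2 in 5.80%, 17.4% and 9.73% of these genes.

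Csf1 encodes macrophage colony-stimulating factor, the growth factor on which most tissue macrophages depend. Its spot read 843 at 17 days, 40.2 at 174 days and 332.2 under calorie restriction. These are 2.31, 1.12 and 0.886 times the array medians, so the spot was well above the middle of the array in the young mouse and near it in both older mice. Among the 8448 spots of its array it lay at the 74.9th percentile at 17 days, at the 54.0th at 174 days and at the 46.3rd under calorie restriction. Normalized log2 levels were 8.69, 7.58 and 7.24. Csf1 was thus 2.16-fold lower at 174 days than at 17 days on the ad libitum diet (-1.11 log2) and 2.73-fold lower in the calorie-restricted mouse than at 17 days (-1.45). Between the 2 older mice it differed by -0.34, which is less than the median disagreement of 2 probes of a gene there.

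**Figure D1:**
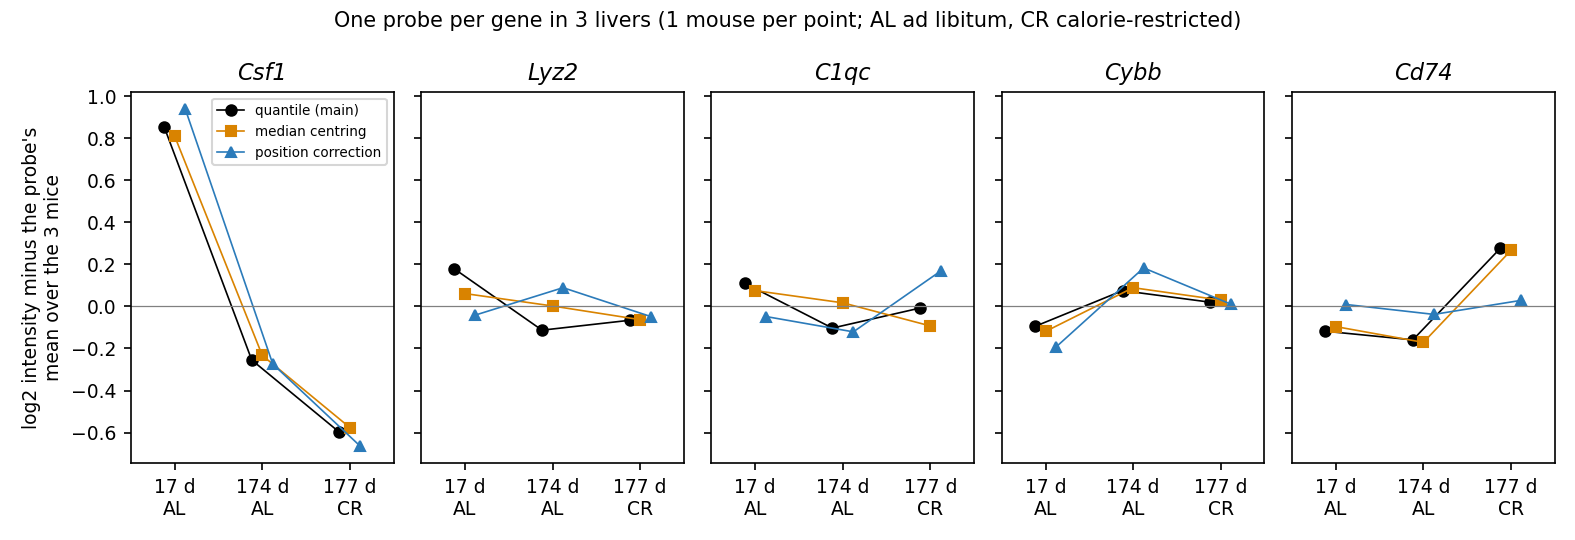
Log2 intensity of each member's single probe in the 3 mice, as the deviation from its own mean, after quantile normalization (circles), median centring (squares) and an added correction for spot position (triangles). Csf1 lies 0.85 above its mean in the 17-day mouse and at -0.26 and -0.60 in the older mice after quantile normalization, with the same order under each setting, whereas the order of the mice for Lyz2 and C1qc changes with the setting.

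Among genes brighter than the middle of their array kind, the Csf1 difference stood at the edge of the distribution. In the age comparison 45 of 3865 genes brighter than the middle of their array kind, or 1.16%, were at least 2-fold apart, 17 of them lower (0.44%). Csf1 was the 12th lowest of them, beside a median over all genes of -0.03. Between the calorie-restricted and the 17-day mouse 61 genes, or 1.58%, were 2-fold apart, 43 of them lower (1.11%), and Csf1 was again the 12th lowest. This set of genes was chosen on the mean level over the 3 mice. Csf1 was at the 60.1st percentile by that mean but at the 46.3rd under calorie restriction, so its high 17-day level helped it in. Over all 7151 named genes with no filter, 3.22% and 1.13% were 2-fold apart in these comparisons. Both comparisons share the 17-day arrays, so the 2 differences are not independent of each other. Csf1 was 1 of 6 genes (0.155%) that were at least 2-fold lower in both older mice, and it was known from earlier results of these data to be among them. With 1 mouse per group, age, feeding and the single animal cannot be told apart, and none of them was tested as a cause.

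The Csf1 difference varied little between the ways of scaling the arrays to each other. Under median centring, in which every array was only centred at its middle, it was -1.04 at 174 days and -1.39 in the calorie-restricted mouse. Spots of one printed block can share a shift, and the median difference in the block of 528 spots that holds Csf1 was 0.05 and 0.22, above 0 in both cases. After correction for spot position Csf1 was at -1.21 and -1.60. No second Csf1 probe was measured, so the disagreement between probes given above is the only measure of error for it.

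**Figure D2:**
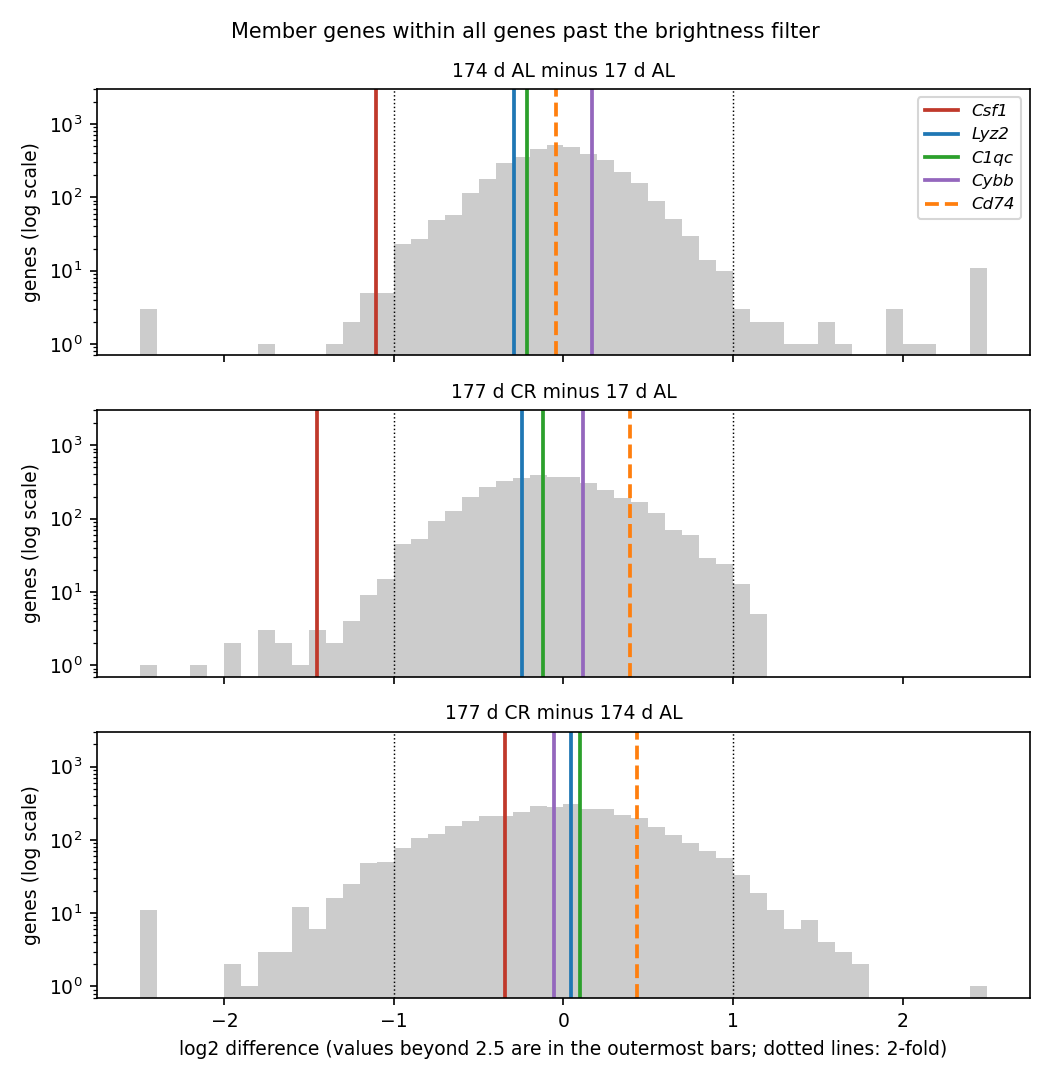
Log2 differences of the 3865 genes past the brightness filter (grey bars, log scale) in the 3 comparisons, with the 5 members as vertical lines and the 2-fold limits dotted; the dashed line is Cd74, whose probe was dimmer than the filter. Csf1 lies outside the lower limit in both comparisons with the 17-day mouse, at -1.11 and -1.45, and the other 4 lie inside the limits in all 3.

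Lyz2 encodes lysozyme M, an enzyme of macrophage and granulocyte granules that cleaves bacterial cell walls. Its spot read 1263 at 17 days, 119.2 at 174 days and 1193 under calorie restriction. As multiples of the array median these are 3.47, 3.33 and 3.18, a near-constant place in each array. The difference was -0.29 log2 with age, 0.05 with diet and -0.24 between the calorie-restricted and the 17-day mouse, each within the median disagreement of 2 probes. With position correction the age difference was 0.13 and the diet difference -0.14, so neither has a settled direction. Lyz1, a closely related lysozyme gene beside it on chromosome 10, had no probe among those named, and how far the Lyz2 spot also binds its transcript was not tested.

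C1qc encodes the C chain of complement C1q, which is made largely by macrophages and starts the classical complement pathway. Its spot read 949.5 at 17 days, 137.8 at 174 days and 698.8 under calorie restriction, which are 2.36, 2.27 and 2.10 times the array medians. It differed by -0.21 log2 with age, 0.10 with diet and -0.12 between the calorie-restricted and the 17-day mouse. The diet value was -0.11 with median centring and 0.29 with position correction, and the value between the calorie-restricted and the 17-day mouse was 0.22 with position correction, so neither has a settled direction. The chain with which it assembles, C1qb, had a spot on the same array that read 1505, 246.2 and 1029 in the 3 mice and differed by -0.16, -0.07 and -0.24, although its age difference was 0.12 with median centring. The C1qa spot, at 81.6, 12.7 and 88.4, was dim and differed by 0.13, 0.29 and 0.43. None of the 3 chains was 2-fold apart in any comparison.

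Cybb encodes gp91phox, the catalytic subunit of the NADPH oxidase with which phagocytes make superoxide. Its spot read 448.2 at 17 days, 50.9 at 174 days and 511.4 under calorie restriction, or 1.23, 1.42 and 1.36 times the array medians. It was the one member with its lowest level in the 17-day mouse under each of the 3 scalings plotted. The differences were small, at 0.17 with age (0.38 with position correction), -0.05 with diet and 0.12 between the calorie-restricted and the 17-day mouse. Cyba, which encodes the membrane partner p22phox, was on the same side with 0.32, -0.01 and 0.31, from readings of 577.7, 75.5 and 745.4. The GTPase genes Rac1, a regulator of the oxidase with roles in all cells, and Rac2, its blood-cell counterpart, were at -0.15 and 0.52 with age. The Rac2 value came from a dim spot, and Rac1 was at 0.32 with median centring. Another, dim Rac1 probe was at -0.29 with age, and at -0.32 with median centring.

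Cd74 encodes the invariant chain that guides MHC class II molecules to the compartment where they load peptides. Its spot read 338.3 at 17 days, 48.5 at 174 days and 359.5 under calorie restriction, which are 0.84, 0.80 and 1.08 times the array medians. With a mean level at the 46.9th percentile of its array it missed the brightness filter, set at the 50th, and it is therefore given by its own probe only. Cd74 was level between the ad libitum mice (-0.04) and higher in the calorie-restricted mouse, by 0.44 log2 against 174 days and 0.39 against 17 days. Both differences are smaller than the median disagreement of 2 probes of a gene there, 0.52 and 0.41, which was taken from brighter probes. Over all 7151 named genes with no filter, 7.44% and 1.13% were 2-fold apart in these comparisons, and Cd74 was not among them. After correction for spot position the 2 Cd74 differences were 0.07 and 0.02. The block that holds the spot had a median difference of 0.23 and 0.16 in the same direction.

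The other class II genes with a named probe were dim too. H2-Eb1, a class II beta chain, read 169.3 at 17 days, 13.6 at 174 days and 169.1 under calorie restriction, and H2-DMa, which helps exchange the invariant chain peptide, read 135.1, 13.7 and 116.4. H2-Eb1 differed by -0.27 with age, 0.21 with diet and -0.06 between the calorie-restricted and the 17-day mouse, and H2-DMa by -0.50, 0.57 and 0.06. After correction for spot position the age differences were -0.15 for H2-Eb1 and -0.14 for H2-DMa. The diet differences were then 0.23 for H2-Eb1 and -0.15 for H2-DMa. The classical genes H2-Aa and H2-Ab1 were not analysed here.

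Among the members that passed the brightness filter, 1 of 4 was at least 2-fold apart in each comparison with the 17-day mouse. Of all genes past it, 1.16% were with age and 1.58% between the calorie-restricted and the 17-day mouse. That member was Csf1, whose difference was known from earlier results of these data and whose 17-day level helped it past the filter. Both comparisons also share the 17-day arrays, so no excess over all genes can be read from this count. In the diet comparison 0 of 4 members were apart, where 6.86% of all genes were. The rest of the macrophage programme was then read from 8 lists of 182 genes, which cover growth factors and receptors, myeloid transcription factors, lysosome, complement, NADPH oxidase, class II presentation, Kupffer cell and general macrophage markers. Of these, 60 had a named probe and 26 passed the filter. Leaving out the 4 members, the 22 other genes had a median of -0.13 log2 with age, beside -0.03 over all genes, with 0 at least 2-fold apart. In the diet comparison their median was 0.06 beside -0.04, with 1 gene 2-fold lower and 0 higher. Between the calorie-restricted and the 17-day mouse it was -0.05 beside -0.09, with 0 apart. With median centring the median over all genes shifted to 0.20 with age and -0.31 with diet, and that of the 22 genes to 0.31 and -0.18.

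**Figure D3:**
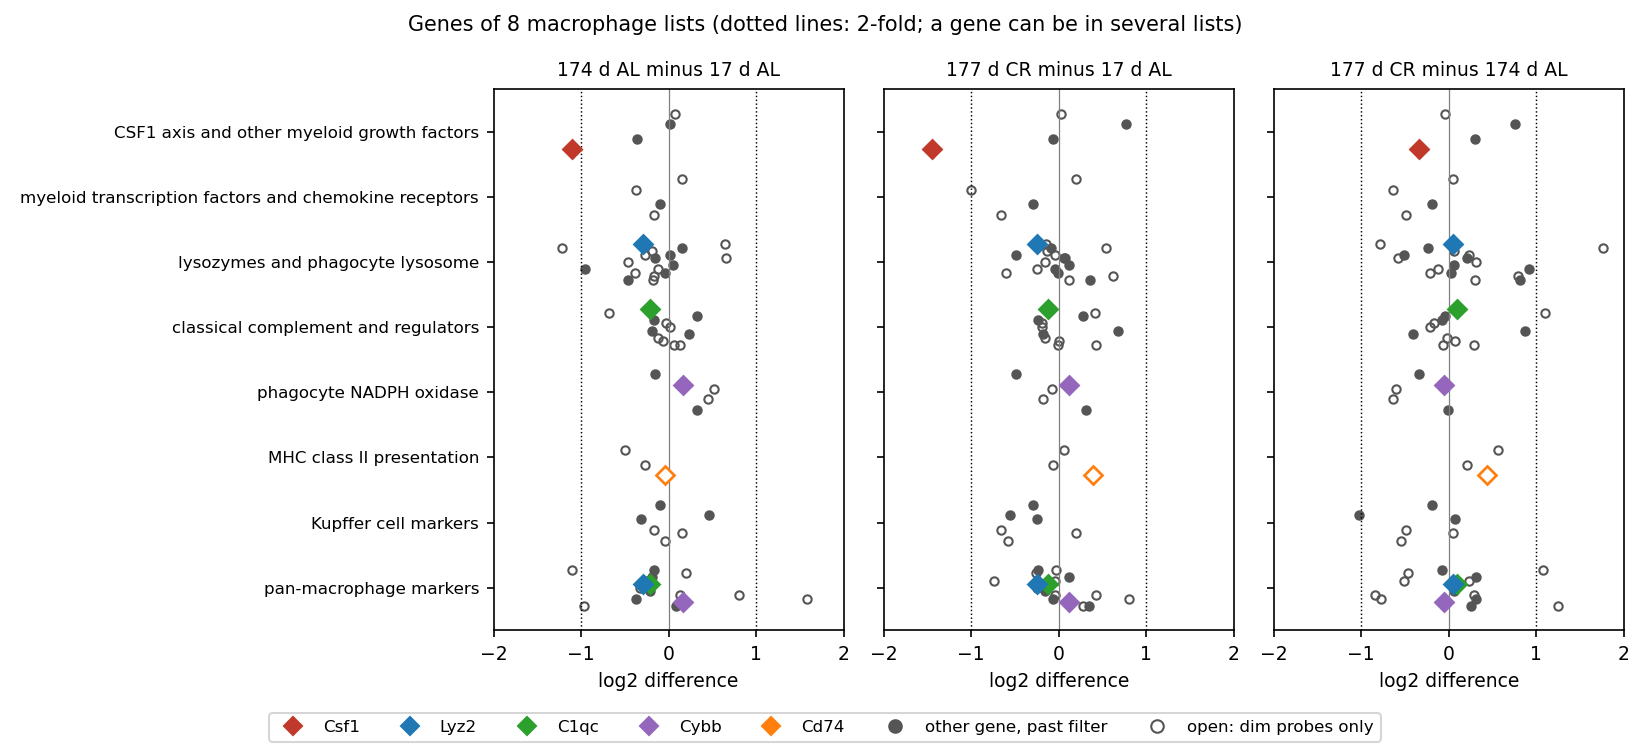
Log2 differences of the genes of 8 macrophage lists with a named probe, in the 3 comparisons, with members as diamonds, genes past the brightness filter filled and genes with dim probes alone open. Csf1 and, in the diet comparison, Hmox1 (-1.02) are the filled points beyond the 2-fold limits, and the further points beyond them are open.

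The single gene beyond Csf1 was Hmox1, the heme oxygenase with which Kupffer cells break down heme, at -1.02 in the diet comparison. Its spot read 1412 at 17 days, 254.7 at 174 days and 1096 under calorie restriction. It was -0.87 after correction for spot position, below the threshold, and Acp5, a lysosomal phosphatase, was then the gene past it, at 1.03 against 0.82 before. Closest to the threshold with age was Ctsc, the protease that activates granule enzymes, at -0.96, which became -0.23 after that correction. In the Csf1 list, the receptor Kit had 2 probes at -0.34 and -0.39 with age, and its ligand Kitl a dim probe at 0.07. Csf3r, the granulocyte colony-stimulating factor receptor, was at 0.01 with age and 0.76 with diet (0.44 after position correction). The spot annotated with both Csf1r and another gene was not used, because a spot with several symbols was not named.

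The brighter markers of macrophages were within 2-fold in both comparisons with the 17-day mouse. Fcgr1, the high-affinity IgG receptor, read 3758 at 17 days, 695.9 at 174 days and 2183 under calorie restriction. It was at -0.22 with age and -0.16 between the calorie-restricted and the 17-day mouse, and at 0.29 and -0.51 with median centring. Fcer1g, the signalling chain shared by several such receptors, was at -0.19 and 0.12, and at 0.32 and -0.29 with median centring. Nr1h3, a nuclear receptor of Kupffer cell identity, was at -0.10 (0.03 with median centring) and -0.30, and Slc40a1, the iron exporter ferroportin, at -0.32 and -0.25. Hmox1 was higher with age instead, at 0.47 (0.88 with median centring and 0.31 with position correction). It was at -0.55 between the calorie-restricted and the 17-day mouse. Of 22 Kupffer cell markers 6 had a named probe and 3 passed the filter, with a median of -0.10 with age. One of the 6, Cdh5, is also an endothelial gene. The defining markers Clec4f, Vsig4, Timd4, Marco and Adgre1 were not analysed here, so the label of Kupffer cells could be checked only against genes that are not particular to them. Which cells gave these readings was not tested.

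Without the brightness filter, 60 genes of the 8 lists could be read and 6 more of them passed 2-fold in some comparison, all from dim spots. With Csf1 and Hmox1 they made 4 genes with age, 5 with diet and 2 between the calorie-restricted and the 17-day mouse, where 3.22%, 7.44% and 1.13% of all 7151 named genes passed. Capg, an actin-capping protein of macrophages, was 1.58 higher with age, from readings of 58.5 and 18.1, the first below the floor of its array (62.9). Psap, a precursor of lysosomal activators, was at -1.22 with age and 1.76 with diet, and its 174-day reading of 5.44 was below the floor of that array (7.04). Lcp2, a blood-cell signalling adaptor, was at -1.11 (-0.75 after correction for spot position) and 1.08, with 7.45 in the 174-day mouse. Fcgr3, an IgG receptor (1.25), and C3ar1, the receptor for complement fragment C3a (1.10, but 0.58 after that correction), were higher with diet. The 174-day reading of Fcgr3 was 7.9, just above the floor of that array (7.04). Irf8, a myeloid transcription factor, was 2.01-fold lower in the calorie-restricted than in the 17-day mouse, from readings of 162.3 and 312.5, and within 2-fold with median centring (-0.99) and position correction (-0.85).

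Genes of other liver cells were read in the same way. Summed over a list as multiples of the array median, the 19 general macrophage probes gave 38.7 at 17 days, 43.4 at 174 days and 33.2 under calorie restriction. The 6 liver endothelial probes gave 14.4, 13.6 and 13.3, the 17 stellate cell and fibroblast probes 52.2, 59.6 and 41.8, and the 6 hepatocyte probes 137.3, 178.1 and 123.3. The 25 erythroid probes gave 99.3, 128.9 and 79.2. Single bright probes carry such sums, with Alb at 68.9 of the hepatocyte and a Tfrc probe at 58.8 of the erythroid sum at 17 days. After quantile normalization the medians with age over genes past the filter were below 0 instead, at -0.20 for general macrophage markers (2 above 0, 6 below), -0.17 for stellate (0 above, 7 below) and -0.10 for hepatocyte genes (1 above, 4 below), so these lists have no settled direction with age. The 2 endothelial genes past the filter had a median of -0.40 with age, on the same side as the endothelial sum. Of them, Pecam1 was at -0.28, but at 0.13 with median centring and 0.01 with position correction. As a multiple of the array median Pecam1 was higher at 174 days (6.33) than at 17 days (5.79), unlike the endothelial sum. The 2 probes of Ehd3 were at -0.65 and -0.37, at -0.53 and -0.11 with median centring, and at -0.39 and -0.09 with position correction. Among genes past the filter, 0 of 2 endothelial, 0 of 7 stellate, 0 of 3 cholangiocyte and 0 of 5 erythroid genes were 2-fold apart in any comparison. The lists of monocyte, neutrophil, dendritic and B cell markers had 1 or 2 genes past the filter and 0 that were 2-fold apart, and that of T and NK cell markers had 0 named probes. Over all genes past the filter, 1.16% were 2-fold apart with age and 6.86% with diet. The share was 1.58% between the calorie-restricted and the 17-day mouse, so counts of 0 in lists this small say little. Among hepatocyte markers Alb alone passed 2-fold, at 1.18 in the diet comparison, but it was at -0.15 with median centring and 0.55 with position correction. The part of cell composition in the Csf1 difference was not tested.

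The genes whose values over the 3 mice ran closest to each member were found by the Euclidean distance between log2 values, each gene centred on its own mean. For Csf1 they were Cyhr1 at a distance of 0.18 log2, Gstp1, a glutathione transferase, at 0.22 and Pdcd5 at 0.25, and these 3 were the genes within 0.25 of it among 3864. Within the same distance lay 1004 genes for Lyz2, 1193 for C1qc, 977 for Cybb and 702 for Cd74. The nearest to Lyz2 were Prpf4b, Erich3 and Csnk1g1, at 0.01 each, those to C1qc Pde8b, Izumo1r and Cnbp, those to Cybb Fzd7, Timm13 and Liph, and those to Cd74 Gm4981, Pum2 and Ifngr2, a chain of the interferon gamma receptor. With 3 mice such closeness is a description of 3 values only, and for the 4 phagocyte genes it is shared by a large part of the array.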

How the data were processed

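The deposited columns were taken to hold linear spot intensity, since their values are positive and skewed to the right with unequal array medians; label chemistry, scanner, background treatment and scaling were not given in the sources used here. Of 16896 spots, 9663 had 1 symbol in the platform annotation held by GEO, 436 several and 6797 none, and 9641 matched RefSeq gene numbers for GRCm38.p6. Values below the 5th percentile of an array were set to it, log2 was taken, and quantile normalization was run separately for the 3 arrays A and the 3 arrays B. A gene took the median of its probes with a mean level above the 50th percentile of the array kind; Cd74, with no such probe, was given by its own. The filter can let in a probe that is bright in 1 mouse only. The 5 members, the 18 gene lists, the settings and the alternatives were chosen with earlier results of these data known. Genes were named as members, as list genes 2-fold apart, as partners of the members, or as the 3 nearest to a member. The 2-fold dim genes and Acp5, Ctsc, Kit, Csf3r, Tfrc and Alb were named after their values were seen. Position correction subtracted block medians (16 blocks, 528 spots in a row each) and then the medians of each place inside the blocks; that layout was inferred from the values. The steps were run on simulated arrays with planted differences and no shift by spot position, which does not measure the error of the real spots. Each group is 1 mouse, which limits the precision of every value. Python 3.11.15, numpy 2.4.6, pandas 2.3.3, statsmodels 0.14.6 and matplotlib 3.10.9 were used.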

Additional observations from a re-analysis of the deposited data

How the results depend on the processing

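Csf1 stayed at least 2-fold lower against the 17-day mouse under each setting with scaled arrays that could give it a value, from -1.21 to -1.04 at 174 days and from -1.60 to -1.39 in the calorie-restricted mouse. Its probe is on array A and below the 75th percentile of level, so array B alone (1 member measured) and the top 25% of probes (1 measured) gave 0 members apart, and gave 0 list genes with age and against the 17-day mouse; array B alone also gave 0 with diet. Lyz2, C1qc, Cybb and Cd74 stayed within 2-fold under every setting with scaled arrays. With no scaling the brightness of the arrays stood in each value. The age values were then -4.39 for Csf1, -3.41 for Lyz2, -2.79 for C1qc, -3.14 for Cybb and -2.80 for Cd74, and the diet values 3.05 for Csf1, 3.32 for Lyz2, 2.34 for C1qc, 3.33 for Cybb and 2.89 for Cd74, so Cybb with age, and Csf1 and Cybb with diet, changed sign. In both comparisons 4 of 4 members and 26 of 26 list genes were then apart, and 2 list genes between the calorie-restricted and the 17-day mouse. List genes apart with diet were 3 with median centring (Ctsz, Hmox1 and Rac1). The Rac1 probe used was then at -1.075, but another, dim Rac1 probe was at 0.65. Without the brightness filter, list genes apart were 4, 5 and 2 with age, with diet and against the 17-day mouse. At 1.5-fold they were 2, 5 and 3. Position correction kept the count of 1 list gene with diet, but the gene was Acp5 (1.03) in place of Hmox1 (-0.87). Loess, the higher floor, the brightest probe, the spots of exactly 10 and single spots moved no count by over 1.5 times and no member across 2-fold. No paired analysis was possible because each group is 1 mouse. Background could not be separated from signal, which limits what dim spots can show.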
